A study of Mus musculus with 6 samples.

Results

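The genes described here encode the transcription factor complex at the end of the Hippo pathway: the coactivators YAP (Yap1) and TAZ (Wwtr1), the DNA-binding TEAD factors (Tead1, Tead2, Tead3 and Tead4) and the VGLL cofactors (Vgll2, Vgll3 and Vgll4). They were chosen by name, as the rows of the deposited array table with exactly 1 gene symbol equal to that of a member, and all 9 had such a row among 22180 genes with a row of this kind. In the cortex of embryos with the Lats1/Lats2 double knock-out genotype, 4 of the 9 were higher than in control cortex (Vgll3, Tead3, Tead1 and Tead4), 0 were lower and 5 did not pass the limma test. Over all 16724 genes tested, 1.36% were called higher and 0.359% lower. At an unadjusted limma p under 0.05, 5 members were higher and 0 lower, against 6.39% and 9.18% of all genes. Vgll3 rose most, 2.73-fold from a low control level, and the TEAD genes that rose did so by 1.29-fold to 1.53-fold. Yap1 and Vgll4 had differences near 0, and Tead2 was the member of its family that did not rise.

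The Hippo pathway ends in the kinases Lats1 and Lats2, which phosphorylate YAP and TAZ and keep them out of the nucleus. YAP and TAZ do not bind DNA themselves and reach their target genes through TEAD factors. VGLL proteins carry a short TEAD-binding region and compete with YAP and TAZ for the same factors, and Vgll4 is known as an antagonist of YAP. In the developing brain this pathway is known for its part in the size of the neural progenitor pool.

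The samples were cortices dissected from 6 untreated mouse embryos (stage E12.5), and per the labels no embryo gave more than 1 sample. The 3 embryos called DKO (double knock-out) carried the genotype Lats1F/F;Lats2F/F;Nestin-Cre, in which loxP-flanked alleles of both kinases meet a Cre recombinase driven in neural progenitors and therefore in the cells that descend from them. The other 3 embryos are labelled control, and the labels used here do not give their alleles. Vessels, blood and meninges that come with the dissected tissue lie outside the neural lineage. Values are log2 intensities, and a row with a Benjamini-Hochberg adjusted p under 0.05 in limma is called changed.

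The arrays had medians between 5.94 and 5.97, and 7 of 7 measured markers of cortical identity lay above the limit for dim genes, although none of them carried a detection call. Lats1 stood at 8.81, 8.34 and 8.98 in control and at 7.82, 7.83 and 7.74 in DKO cortex, and fell by 0.91 ± 0.14 (SE) on the log2 scale (limma adjusted p = 0.0189). Lats2 stood at 7.16, 6.84 and 7.11 in control and at 7.36, 7.18 and 7.27 in DKO cortex and was thus not lower (adjusted p = 0.285). Where the Lats2 probes lie relative to the deleted exons is unknown here, and a row outside the deleted part checks nothing. Array DKO 2 had the lowest mean level of all 6 arrays for the marker lists of meninges, endothelium, pericytes, microglia and blood, for instance 6.87 against 7.34 to 7.63 in control for meninges. The level of a marker list is the mean log2 value of its members on an array.

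The values of all 9 genes on each array are shown in the plot of the members, and their differences with 95% intervals in the plot of the differences. A bulk measurement of this kind cannot tell apart more cells that express a gene from more RNA of that gene per cell.

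**Figure D1:**
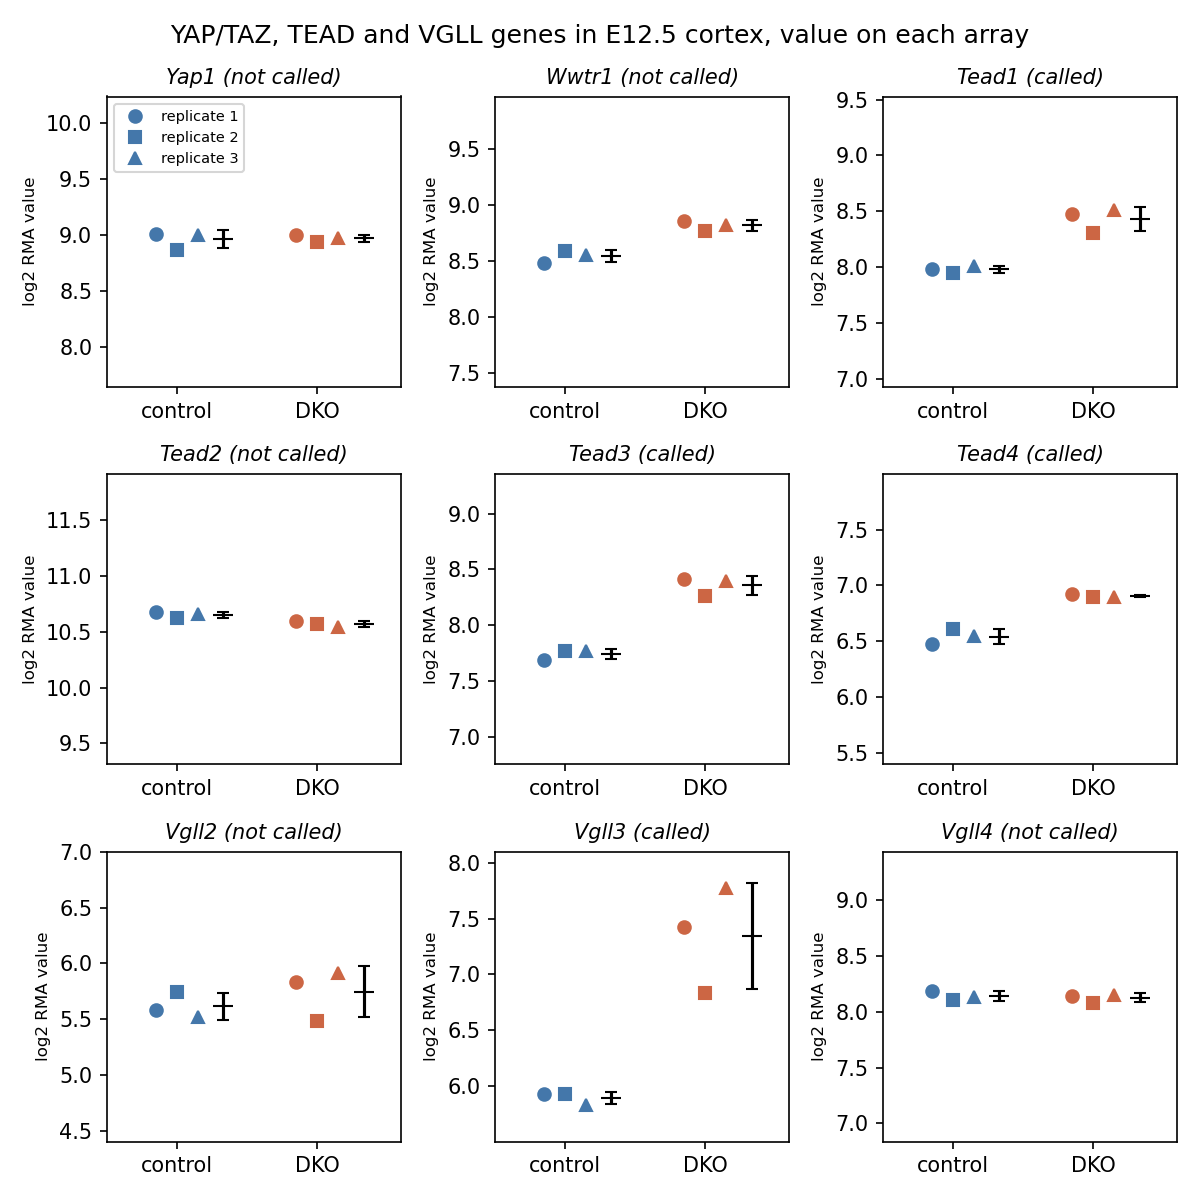
Log2 RMA value (y axis, the same span in each panel) of each gene on 3 control and 3 DKO arrays, with replicates as circles, squares and triangles and the mean ± SD as a bar. The groups stand apart for Wwtr1, Tead1, Tead2, Tead3, Tead4 and Vgll3, and overlap for Yap1, Vgll2 and Vgll4.

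**Figure D2:**
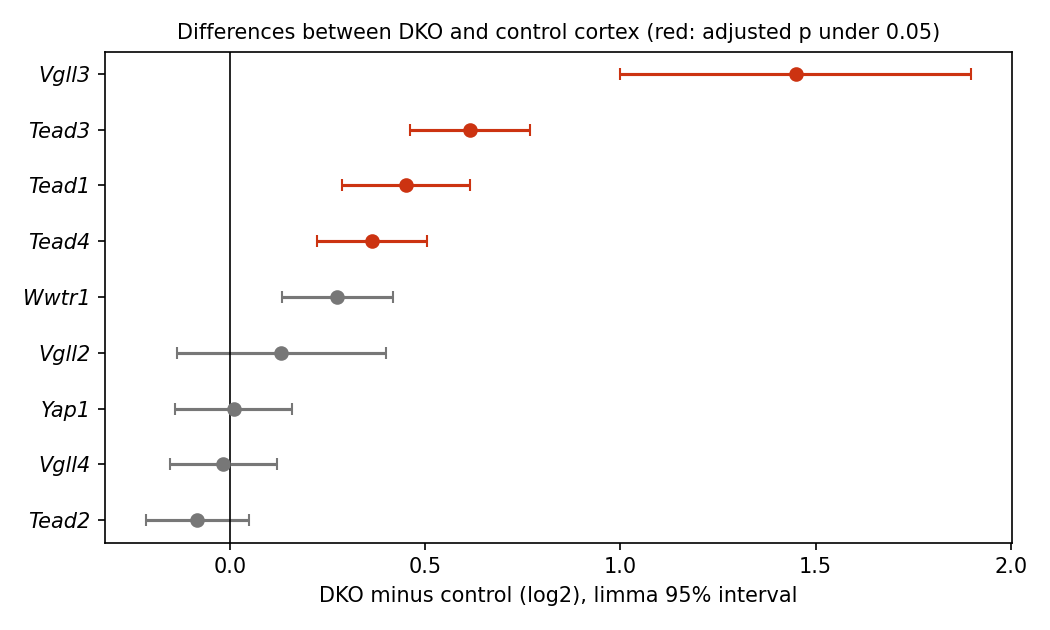
DKO minus control difference on the log2 scale (x axis) with limma's 95% interval for each gene, in red where the adjusted p was under 0.05. Vgll3, Tead3, Tead1 and Tead4 lie above 0 in red, and the intervals of Yap1, Vgll4, Vgll2 and Tead2 include 0.

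The messages of the coactivators themselves did not pass the test. Yap1 stood at 9.014, 8.868 and 9.005 in control and at 8.999, 8.941 and 8.974 in DKO cortex. The groups overlapped completely, and every DKO array lay within the range of the control arrays. The difference was 0.01 ± 0.07 (SE) on the log2 scale with a limma 95% interval from -0.14 to 0.16, that is a change of -9.27% to 11.6% (adjusted p = 0.966). A dimmer row of Yap1 with a mean of 3.91 over the 6 arrays, under the limit for dim genes of 5.02, differed by 0.04.

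Wwtr1, which encodes TAZ, stood at 8.49, 8.59 and 8.56 in control and at 8.86, 8.77 and 8.83 in DKO cortex. All 3 DKO arrays lay above all 3 control arrays, with a gap of 0.18 between the groups. The difference was 0.27 ± 0.06 (SE), a 1.21-fold higher level, which was short of the threshold (limma adjusted p = 0.0779, 95% interval 0.13 to 0.42). It passed in 3 of the 17 other settings tried: with the stricter filter on dim genes (adjusted p = 0.0413), a variance trend (0.0315) and array weights (0.0438). Over all 17 settings its adjusted p lay between 0.0315 and 0.277. Within the same arrays the difference of Yap1 minus that of Wwtr1 was -0.27 ± 0.07 (SE), and the groups did not overlap (exact two-sided permutation p = 0.1, the smallest that 3 arrays against 3 allow, and 0.125 adjusted over the 10 pairs compared within families).

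The TEAD genes split into 3 that rose and 1 that did not. TEAD factors share the DNA-binding TEA domain at one end of the protein and bind YAP, TAZ and VGLL proteins with the other. Of the TEAD genes 3 of 4 were called higher, against 1.36% of all genes tested (1.72% were called in either direction). The groups stood apart with DKO higher for 5 of the 9 members, against 8.22% of all genes, and with DKO lower for 1, against 13.4% of all genes, so that 6 of 9 stood apart against 21.6% in either direction. The median difference of the 9 members was 0.27, and that of all genes tested was -0.03.

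Tead3 had the largest increase and the smallest adjusted p of the 4 TEAD genes. It stood at 7.69, 7.77 and 7.77 in control and at 8.42, 8.26 and 8.40 in DKO cortex. The lowest DKO array was 0.49 above the highest control array. Its level was 7.74 ± 0.04 (SD, n = 3) in control and 8.36 ± 0.08 (SD, n = 3) in DKO cortex, an increase of 0.61 ± 0.07 (SE) or 1.53-fold (limma adjusted p = 0.00292, 95% interval 0.46 to 0.77). It was past the threshold in each of the 17 other settings, with adjusted p up to 0.0384.

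Tead1 stood at 7.99, 7.95 and 8.01 in control and at 8.48, 8.31 and 8.51 in DKO cortex. The groups were 0.30 apart, and DKO 2 was the lowest of the DKO arrays. The increase was 0.45 ± 0.07 (SE) or 1.37-fold (limma adjusted p = 0.0193, 95% interval 0.29 to 0.61). Leaving out 1 array ended the call in 5 of 6 fits: the limma adjusted p was 0.0867, 0.0691 and 0.0715 when control 1, 2 or 3 was absent, and 0.0908 and 0.0808 when DKO 1 or DKO 3 was, while the difference stayed between 0.41 and 0.51. It was also lost with every row of the table tested (adjusted p = 0.137).

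Tead4 stood at 6.47, 6.61 and 6.55 in control and at 6.92, 6.90 and 6.90 in DKO cortex. The DKO arrays lay close together, with an SD of 0.01 against 0.07 in control, and 0.29 above the highest control array. The increase was 0.36 ± 0.06 (SE) or 1.29-fold (limma adjusted p = 0.0258, 95% interval 0.22 to 0.50). Here too 5 of 6 such fits ended the call: the limma adjusted p was 0.135 and 0.0935 when control 1 or control 3 was absent, and 0.0976, 0.0531 and 0.0854 when DKO 1, 2 or 3 was, while the difference stayed between 0.33 and 0.39. It was also lost with every row tested (0.149) and with the replicate number as a block (0.0842).

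Tead2, a family member known for its expression in the early neuroepithelium, stood at 10.68, 10.62 and 10.66 in control and at 10.59, 10.57 and 10.55 in DKO cortex. The highest DKO array was below the lowest control array, by a gap of only 0.03. The difference was -0.08 ± 0.06 (SE), and did not pass the test (limma adjusted p = 0.542, 95% interval -0.22 to 0.05). The interval's upper end is an increase of 3.32%, and the intervals of the other 3 TEAD genes begin at 16.7% for Tead4, 22.0% for Tead1 and 37.7% for Tead3.

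The responses of the TEAD genes were compared pair by pair within the arrays, since levels of different rows cannot be set against each other. The difference of Tead3 exceeded that of Tead2 by 0.70 ± 0.06 (SE), that of Tead1 exceeded it by 0.53 ± 0.07 (SE) and that of Tead4 by 0.45 ± 0.05 (SE). Tead3 also exceeded Tead4, by 0.25 ± 0.05 (SE), and Tead1, by 0.16 ± 0.04 (SE). In these 5 pairs the 2 groups of arrays stood apart, with an exact two-sided permutation p of 0.1 each, the smallest possible, and 0.125 adjusted over 10 pairs. Tead1 and Tead4 differed by 0.09 ± 0.08 (SE) with overlapping groups (exact permutation p = 0.4), so their order was not resolved. By these values the response of Tead3 was first in order and that of Tead2 last, with Tead1 and Tead4 between them, although a pairwise test of this size cannot pass 0.05.

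The VGLL genes contained the largest response of the 9. Vgll3, a TEAD cofactor known from mesenchymal and muscle cells, stood at 5.93, 5.93 and 5.83 in control and at 7.43, 6.84 and 7.77 in DKO cortex. The groups did not overlap, although DKO 2 lay 0.59 below the next DKO array. The level was 5.90 ± 0.06 (SD, n = 3) in control and 7.34 ± 0.47 (SD, n = 3) in DKO cortex, an increase of 1.45 ± 0.20 (SE) or 2.73-fold (limma adjusted p = 0.00859, 95% interval 1.00 to 1.90). The control values lay above the limit for dim genes of 5.02 but below the array medians of 5.94 to 5.97. No detection call was used, so the fold starts from a low and less certain level. Vgll3 ranked 18 in size among the 228 genes called higher. The call of Vgll3 was lost without control 3 (limma adjusted p = 0.0527) and without DKO 1 (0.0555) and with every row tested (0.103). Without DKO 2 the increase was 1.70 (adjusted p = 3.59e-04).

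DKO 2, the lowest DKO array for Vgll3, Tead1 and Tead3, was the lowest DKO array for 7 of the 9 members. It was also lowest for the target genes of YAP and TAZ as a list, whose mean level was 7.60, 7.41 and 7.59 on the 3 DKO arrays. DKO 2 had the lowest median over all genes tested as well, 7.083 against 7.112 in DKO 1 and 7.115 in DKO 3. How often DKO 2 was lowest over all genes was not counted, so the 7 of 9 is not read as a trait of the members. Markers of meninges and mesenchyme stood at 7.77, 6.87 and 7.43 on the 3 DKO arrays, with 0 of 9 called. Markers of skeletal muscle stood between 5.75 and 5.86 in DKO against 5.81 to 5.94 in control, with 0 of 7 called. Of the hem and choroid plexus markers 2 of 8 (Lmx1a and Ttr) were called higher, against 1.36% of all genes, and 6 did not pass, with a range of the list of 6.27 to 6.63 in DKO against 5.80 to 6.09 in control. All 8 had a higher DKO mean, and at an unadjusted limma p under 0.05, 5 were higher and 0 lower. Of the intermediate progenitor markers 4 of 8 were called lower, against 0.359% of all genes, with a range of 8.24 to 8.45 against 8.71 to 8.89. All 8 of these were lower at the unadjusted level. The 9 apical progenitor markers went both ways. Slc1a3 was called higher, at 0.40 (limma adjusted p = 0.0397), Hes5 was called lower, at -0.90 (0.00197), and 7 did not pass. At an unadjusted limma p under 0.05, 4 apical progenitor markers were higher and 1 lower. Markers of the ventral telencephalon had 0 of 6 called, with 2 lower and 0 higher at that level, and a lower DKO mean for all 6. Markers of cortical identity had 0 of 7 called and a range of 9.07 to 9.13 in DKO against 9.28 to 9.45 in control. Neuron markers had 0 of 9 called and 9.41 to 9.54 against 9.62 to 9.80. At an unadjusted limma p under 0.05, 6 of 7 and 6 of 9 of these were lower and 0 higher. The shares of all genes were 9.18% lower and 6.39% higher. At that level 0 of 9 meninges markers passed and 1 of 7 muscle markers was lower. Tbr1 counts in both the cortical identity and neuron lists, and Pax6 in both the cortical identity and apical progenitor lists. Eomes and Neurog2 count in both the cortical identity and intermediate progenitor lists, so the counts of these lists are not independent. The part of the marker lists in the responses of the members was not tested.

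Vgll2, a cofactor of skeletal muscle, stood at 5.58, 5.75 and 5.52 in control and at 5.83, 5.49 and 5.92 in DKO cortex. The groups overlapped, and DKO 2 was the lowest of all 6 arrays. The difference was 0.13 ± 0.12 (SE) (limma adjusted p = 0.646, 95% interval -0.14 to 0.40), and at a mean of 5.68 the row was close to the limit for dim genes. The Vgll2 difference was 0.26 without DKO 2 and 0.045 without DKO 3, and did not pass in either fit (limma adjusted p = 0.218 and 0.900). Vgll4 stood at 8.19, 8.10 and 8.13 in control and at 8.14, 8.08 and 8.15 in DKO cortex. Its groups overlapped, with a difference of -0.02 ± 0.06 (SE) (limma adjusted p = 0.922, 95% interval -0.15 to 0.12). Within the arrays the response of Vgll3 exceeded that of Vgll4 by 1.47 ± 0.25 (SE) and that of Vgll2 by 1.32 ± 0.15 (SE), with groups apart in both pairs (exact permutation p = 0.1 each, 0.125 adjusted over 10 pairs). Vgll2 and Vgll4 differed by 0.15 ± 0.14 (SE) with overlapping groups (exact permutation p = 0.2).

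Since 3 TEAD genes and a TEAD cofactor moved together, the bases just upstream of the members' start sites were searched for the sequence that TEAD factors are known to bind. RefSeq promoter windows of the build GRCm38.p6 were at hand for 7 of the 9 genes, in 10 windows, and the 250 bases before each start were used. Tead1 and Tead4 were not among them. The letters CATTCC, on either strand, occurred in 5 of the 7 genes (Yap1, Wwtr1, Tead3, Vgll3 and Vgll4) and in 7 of the 10 windows, against 12.6% of 32851 windows and 14.4% of 27025 genes. The windows of a gene can overlap, so they are not independent. The motif was present upstream of genes that rose (Tead3, Vgll3) and of genes that did not pass the test (Yap1, Wwtr1, Vgll4). The AP-1 sequence TGANTCA, with N for any base, occurred in 0 of the 10 windows, against 6.75% of all windows. The members' windows held 57.2% to 76.8% of G and C, against a median of 52.4% over all windows, and the shares were not matched for this.

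The windows of the genes with the clearest increases, Tead3 and Vgll3, are printed with those of Tead2 and Yap1, which did not rise, so that the positions can be compared. They are written 5′ to 3′ on the strand of the gene and end at the base before the start, and capitals mark CATTCC or its reverse complement GGAATG. They lie at chr17:28350806-28351055 (minus strand) for the outermost of 3 Tead3 starts, chr16:65814939-65815188 (plus) for Vgll3, chr7:45215542-45215791 (plus) for Tead2 and chr9:8004597-8004846 (minus) for Yap1.
Tead3: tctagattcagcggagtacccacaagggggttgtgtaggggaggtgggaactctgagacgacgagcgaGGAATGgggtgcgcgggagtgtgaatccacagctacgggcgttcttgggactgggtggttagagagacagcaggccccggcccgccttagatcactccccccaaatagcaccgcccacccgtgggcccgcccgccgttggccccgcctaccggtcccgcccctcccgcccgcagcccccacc
Vgll3: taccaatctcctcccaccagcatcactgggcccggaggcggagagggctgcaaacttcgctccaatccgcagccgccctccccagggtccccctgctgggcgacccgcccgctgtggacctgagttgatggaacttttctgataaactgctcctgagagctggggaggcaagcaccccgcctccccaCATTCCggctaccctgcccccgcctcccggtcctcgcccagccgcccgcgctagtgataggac
Tead2: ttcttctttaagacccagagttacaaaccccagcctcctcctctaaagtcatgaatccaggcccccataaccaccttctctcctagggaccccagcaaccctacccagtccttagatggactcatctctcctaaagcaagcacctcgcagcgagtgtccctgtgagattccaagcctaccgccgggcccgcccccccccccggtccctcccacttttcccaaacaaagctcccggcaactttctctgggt
Yap1: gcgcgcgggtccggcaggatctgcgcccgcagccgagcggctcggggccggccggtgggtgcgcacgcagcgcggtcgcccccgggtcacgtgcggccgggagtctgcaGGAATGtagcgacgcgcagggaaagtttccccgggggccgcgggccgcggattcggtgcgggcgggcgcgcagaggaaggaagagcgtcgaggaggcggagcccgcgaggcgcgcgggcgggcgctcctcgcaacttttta
The match begins 182 bases before the start in Tead3, 63 in Vgll3 and 141 in Yap1. The window of the innermost Tead3 start, which is not printed, held no match. The window of Tead2 holds neither these letters nor the AP-1 sequence.

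Upstream of a further Tead3 start the letters occurred as a direct repeat, with 3 bases between the copies. It begins 123 bases before that start, and the 29 bases around it, at chr17:28350702-28350730 on the minus strand, are shown.
Tead3 repeat: ccgggctCATTCCgtaCATTCCggccatc
A direct repeat of CATTCC with this spacing, on either strand, was held by 5 of 32851 windows, or 0.0152%. No other spacing was counted, so this share does not show that the spacing is rarer than others. The repeat was chosen for a count after the Tead3 sequence was seen, and in Tead3 it lies downstream of the outermost start. The 5 windows belonged to Tead3, Cast, Erc2, BE692007 and Gm32579, of which the last 2 were not among the genes tested here. Cast, which encodes the calpain inhibitor calpastatin, had a difference of 0.28 ± 0.08 (SE, limma adjusted p = 0.129), and Erc2, a protein of the presynaptic active zone, one of -0.01 ± 0.07 (SE, adjusted p = 0.970). A match of letters describes the window and does not show that a factor is bound there.

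Other genes of the same pathway were counted next to the members. A signature of target genes that respond to YAP and TAZ in many cell types had 21 genes with a row, of which 20 were tested and 1, Ankrd1, lay under the limit for dim genes. Of the 20, 7 rose and 0 fell, against 1.36% and 0.359% of all genes. At an unadjusted limma p under 0.05, 10 were higher and 0 lower, against 6.39% and 9.18%, with Lats2, itself targeted by the knock-out, among the 10. The 4 with the smallest p were the genes of the secreted matricellular proteins Ccn1, at 1.91 ± 0.11 (SE), and Ccn2, at 1.71 ± 0.11 (SE), the YAP-binding phosphatase Ptpn14, at 1.59 ± 0.09 (SE), and tissue factor (F3), which starts coagulation, at 1.45 ± 0.09 (SE) (limma adjusted p = 2.53e-04 for Ptpn14, Ccn1 and F3 and 2.76e-04 for Ccn2). The median of this list was 0.16.

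Of 30 tested Hippo kinases, scaffolds and regulators that bind YAP or TAZ, 5 rose, against 1.36% of all genes, and the median was -0.02. The 1 gene that fell, Lats1, is itself targeted by the knock-out, so its fall is not set against a share of all genes. Besides Ptpn14, the genes that rose were Ajuba, a LIM-domain inhibitor of Lats kinases, at 1.54 ± 0.11 (SE), Wwc2 and Wwc1, WW-domain scaffolds upstream of Lats, at 1.19 ± 0.08 (SE) and 0.85 ± 0.08 (SE), and Amotl2, an angiomotin that binds YAP, at 0.72 ± 0.09 (SE) (limma adjusted p between 2.53e-04 and 0.00576). Ptpn14, Amotl2 and Lats2 stand in both this list and the list of targets. In each fit that left out 1 array 5 genes of this list were called higher, while Lats1 had a limma adjusted p of 0.0805 and 0.0570 when control 1 or control 3 was absent, and of 0.0864 and 0.0814 when DKO 1 or DKO 3 was.

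Of 24 genes with a row, mostly transcription factors, that also bind YAP or TAZ or share sites with TEAD, 23 were tested. The remaining 1, Tbx5, lay under the limit for dim genes. The list also holds the receptor Erbb4 and the coactivator Ctnnb1. Of the 23, 2 rose and 0 fell, against 1.36% and 0.359% of all genes, with a median of 0.04. At an unadjusted limma p under 0.05, 2 were higher and 2 lower, close to the 6.39% and 9.18% of all genes. The genes that rose were the AP-1 subunits Fosl2, at 0.73 ± 0.09 (SE, limma adjusted p = 0.00598), and Atf3, at 0.77 ± 0.14 (SE, adjusted p = 0.0382). Runx3 and Runx1, runt-domain factors that can bind YAP and TAZ, had differences of -0.16 ± 0.06 (SE) and -0.27 ± 0.11 (SE) and did not pass (adjusted p = 0.215 and 0.304). The count fell to 1 without control 1, control 3, DKO 1 or DKO 3 and with the replicate number as a block, and the median turned to -0.0071 without DKO 1 and was 0.0917 without DKO 2.

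Of 15 tested coactivators and corepressors that work with YAP, TAZ and TEAD, 0 passed the limma test in either direction, and the median was -0.08. The 4 with the smallest p were Smarca4, the ATPase of the BAF chromatin remodeller, at -0.16 ± 0.07 (SE), Ncoa1, a coactivator of the steroid receptor coactivator family, at -0.16 ± 0.07 (SE), Arid1a, another BAF subunit, at -0.11 ± 0.06 (SE), and Chd4, the ATPase of the NuRD complex, at -0.10 ± 0.06 (SE), with limma adjusted p from 0.292 to 0.508. At an unadjusted limma p under 0.05, 0 were higher and 1, Smarca4, was lower, against 6.39% and 9.18% of all genes. The genes of the 4 lists are shown beside the members in the plot of the pathway.

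**Figure D3:**
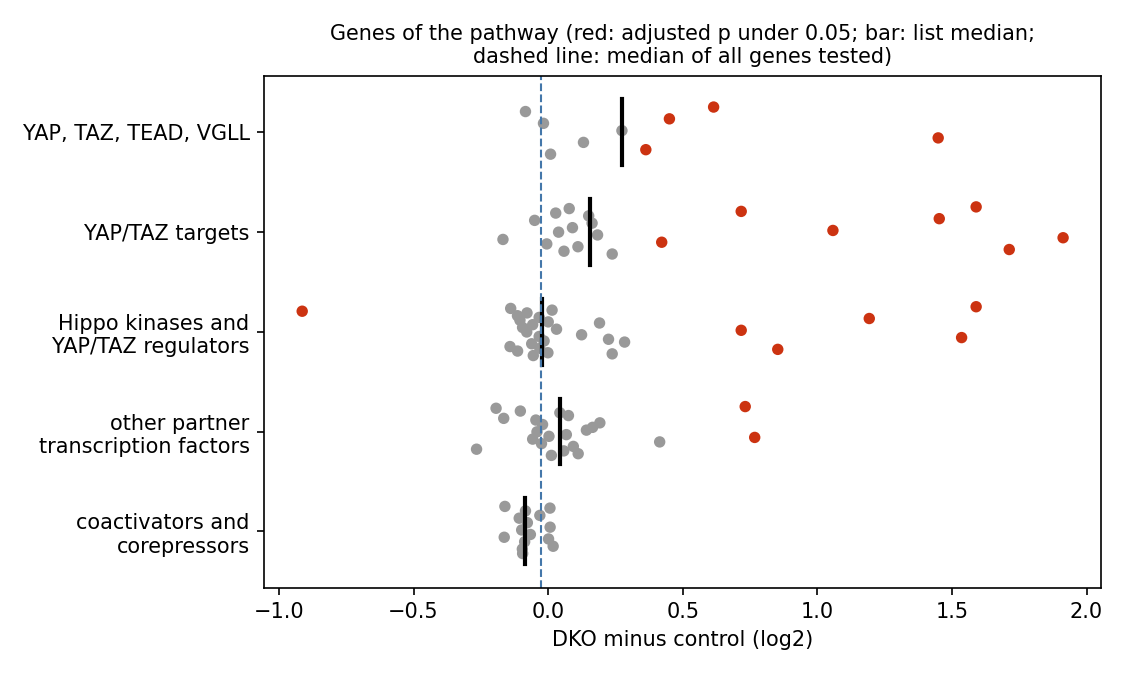
DKO minus control difference on the log2 scale (x axis) of each tested gene of the complex and of 4 pathway lists, in red where the limma adjusted p was under 0.05, with the list median as a bar and the median of all genes tested (-0.03) as a dashed line. The members' median of 0.27 lies right of the line, and the lone red point left of 0 is Lats1 at -0.91.

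For each member that rose, the genes with the most similar values were found by the root mean square difference of the log2 values on the 6 arrays, each gene centred on its own mean, over 16723 other genes. The nearest to Tead3 were Raver2 (0.0348), Veph1 (0.0386) and Rhobtb3 (0.0414), which had differences of 0.60, 0.63 and 0.62. The nearest to Tead1 were Myh9 (0.0328), Gbe1 (0.0350) and Zyx (0.0360), at 0.44, 0.42 and 0.42. Myh9 encodes a heavy chain of nonmuscle myosin and Zyx the focal adhesion protein zyxin. The nearest to Tead4 were Foxj1 (0.0299), Mapk8ip1 (0.0374) and Ogn (0.0392), at 0.40, 0.35 and 0.34. Foxj1 is a factor of motile cilia. Vgll3 had no neighbour as close: Tll2 (0.175), Mcam (0.183) and the target gene Ccn2 (0.196) came nearest, at 1.25, 1.40 and 1.71. This likeness rests on 6 arrays in 2 groups and carries no test. The measure was not scaled, so the genes it picks have differences of similar size by construction. Vgll3 had a large difference and an SD of 0.47 in DKO, and its larger distances do not show that it stands alone.

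How firmly each increase stood above the threshold differed between the members and is shown in the plot of the settings. Without control 1 or DKO 3, 2 members were called higher, without control 3 or DKO 1 only Tead3, and without control 2 or DKO 2, 3 members, each with fewer arrays than the full comparison. The number of genes called higher over all genes was 138, 140 and 122 without control 1, 2 and 3, and 132, 260 and 129 without DKO 1, 2 and 3, against 228 with all arrays. The groups stood apart for Vgll3, Tead3, Tead1 and Tead4, so leaving out 1 array could not reverse the direction of these increases.

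**Figure D4:**
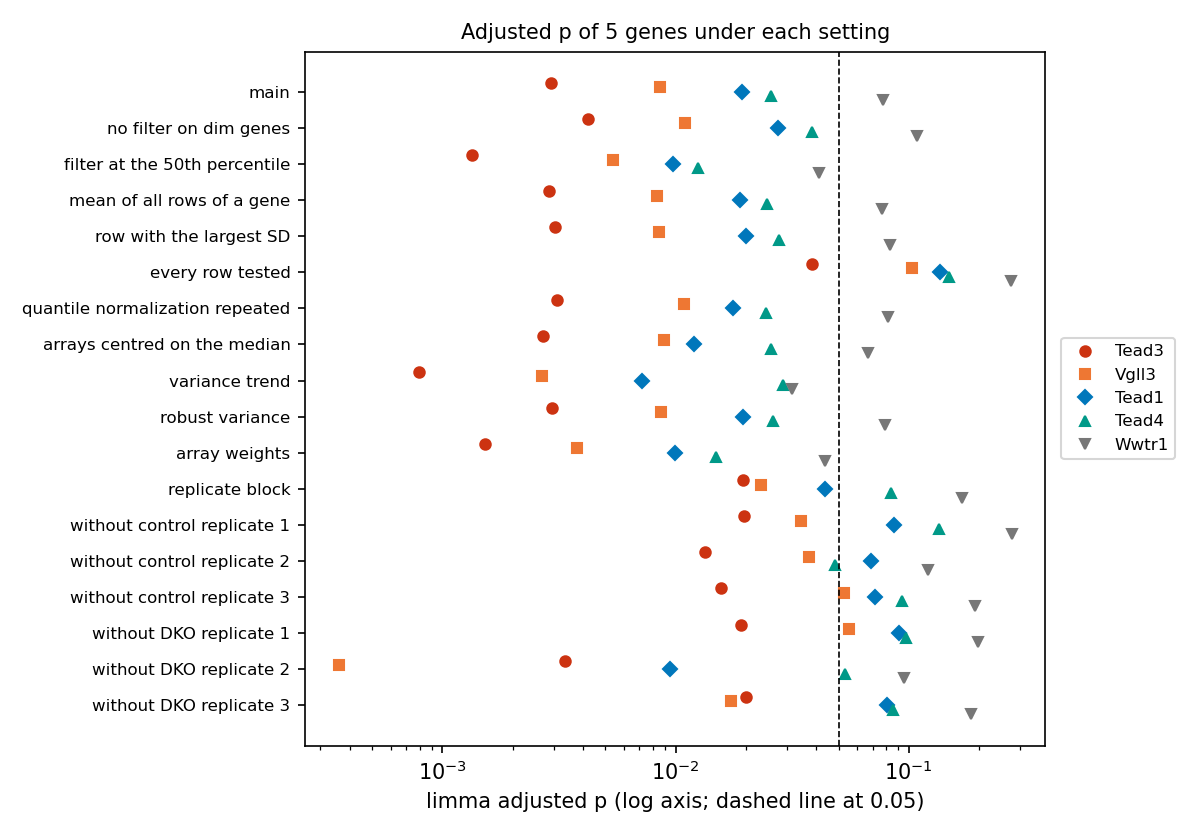
Limma adjusted p (x axis, log scale, dashed line at 0.05) of Tead3, Vgll3, Tead1, Tead4 and Wwtr1 in the main comparison and under 17 other settings (y axis). Tead3 lies left of the line in every setting, Wwtr1 in 3 of the 17, and Tead1 and Tead4 lie right of it in 5 of 6 fits with an array left out.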

How the data were processed

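Total RNA of the cortex of 6 embryos was hybridised to Affymetrix whole-transcript arrays, 1 array a sample. Per the submitters' processing notes the authors made the log2 values by RMA, which corrects background, quantile normalizes the arrays and summarises the probes of a row; its version is not given in the sources used here. Such values carry no information on total RNA per cell. Of 41345 rows, 23521 had 1 gene symbol in the platform annotation, covering 22180 genes; a gene with several rows kept the one with the highest mean over the 6 arrays. All 9 members matched RefSeq (GRCm38.p6) by gene identifier. Genes under the 25th percentile of the one-symbol row means (log2 5.02) were left out, which left 16724; all 9 members passed, and each had a control mean above the limit. DKO and control were compared with limma 3.58.1 in R 4.3.3 (lmFit, eBayes, two-sided, 4 residual and 4.44 prior degrees of freedom), with p adjusted over all genes tested and 95% intervals from the fit. Pairs of members were compared by exact two-sided permutation. The number of arrays limits the precision. Scripts were tested on simulated data. The members, lists and tests were chosen with earlier results of these data known. Named from the lists are the 4 genes with the smallest p, and all called genes where 6 or fewer were called; members are all named. Other settings were 2 filters, 2 row choices, all rows, 2 normalizations, 3 variance models, a replicate block and leaving out each array. Same-numbered control and DKO samples are not tied by the labels. No pair of arrays was identical (correlations 0.978 to 0.994). Positions of probes are not given in the sources used here.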

Additional observations from a re-analysis of the deposited data

How the results depend on the processing

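The increase of Tead3 kept its call in all 17 other settings, between 0.59 and 0.66 on the log2 scale. When 1 array was left out, the members called higher numbered 1 to 3, genes called higher 122 to 260 and genes called lower 11 to 55. The differences then lay between 0.41 and 0.51 for Tead1, 0.33 and 0.39 for Tead4, 1.24 and 1.70 for Vgll3, 0.045 and 0.26 for Vgll2, -0.038 and 0.035 for Yap1 and -0.037 and 0.0060 for Vgll4, of which the last 2 changed sign without ever passing. Among the pathway lists, 0 to 1 Hippo genes were lower, 1 to 2 partner factors higher, and the median of the partner factors lay between -0.0071 and 0.0917.

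With every row of the table tested, which raised the number of tests, Tead1 (0.45, adjusted p 0.137), Tead4 (0.36, 0.149), Vgll3 (1.45, 0.103) and Lats1 (-0.91, 0.155) were not called. The counts were then 1 member, 81 rows higher and 7 lower, 4 targets higher, 0 Hippo genes lower and 0 partner factors higher. Wwtr1 passed with the filter at the 50th percentile (0.27, adjusted p 0.0413), a variance trend (0.27, 0.0315) and array weights (0.30, 0.0438). Genes called lower numbered 134 with that filter, 162 with the trend and 123 with the weights, against 60. The filter at the 50th percentile removed Vgll2 and moved the median of the targets to 0.24 and of the partner factors to 0.0846. Choosing the row with the largest SD put the dimmer row of Yap1 in use, which lay under the limit, so it has no value there. Yap1 turned to -0.0026 with quantile normalization repeated and to -0.0076 with array weights. The cause of these changes was not tested.

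With the replicate number as a block, Tead4 lost its call (0.36, adjusted p 0.0842), genes called lower numbered 24 and 1 partner factor rose; no other member's call changed. Same-numbered control and DKO arrays had correlated deviations of -0.10, 0.21 and 0.15, so the numbers are not taken as pairs. Pair values were computed again only with the mean of all rows of a gene and in the 6 fits without 1 array. These 70 values moved by less than 1 SD and kept their sign. In the 8 pairs with groups apart, leaving out 1 array could not change the sign. Among the members only Yap1 has a further row, so the mean of rows could alter only its pair. The dim rows, Vgll2 above all and Vgll3 in control, limit what can be said, since no detection call was used.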
